A study of Homo sapiens with 6 samples.

Results

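The genes described here are those of the extracellular matrix whose symbols name a collagen chain or a laminin chain, together with FN1 (fibronectin), NID1 and NID2 (the nidogens), HSPG2 (perlecan), AGRN (agrin), SPARC (osteonectin) and TNC (tenascin-C). They were chosen by symbol alone, with no measured value in the rule, and 65 of the 20030 genes of the count table met it. Of these, 63 encode a collagen chain, a laminin chain or one of the named matrix proteins. The other 2 share only the letters of their symbol with the collagens: COL4A3BP encodes the ceramide transfer protein, and COL4A2-AS2 is an antisense RNA.

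Collagens are built from 3 chains wound around each other, and the cell must express every chain that a given molecule needs. Fibrillar collagens form the cables of connective tissue, whereas collagen IV and the laminins form separate sheet-like networks in the basement membrane, and nidogen, perlecan and agrin tie these networks to each other or to the cell. A laminin is a cross of 1 alpha, 1 beta and 1 gamma chain. Fibronectin is secreted in large amounts by hepatocytes into plasma and is also assembled into fibrils at the surface of many cells. In liver, most fibrillar collagen is made by stellate cells and fibroblasts rather than by hepatocytes.

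The data were mRNA sequencing libraries of HepG2, a human hepatoma cell line that keeps many functions of hepatocytes. In the sh-KIF11 group (3 libraries) the cells carried an shRNA directed at KIF11, the motor protein that slides spindle microtubules apart in mitosis, and in the sh-ctrl group (3 libraries) a control hairpin. Both groups received their shRNA by lentivirus and were selected with puromycin, and 1 shRNA sequence against KIF11 was used, so its own effects and those of lower KIF11 cannot be told apart. The comparison asks how the transcriptome of these cells differed when KIF11 was knocked down. Nothing in the labels says whether the 3 libraries of a group came from separate cultures, so the p-values below measure only the spread between these libraries.

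Each library held between 18167773 and 19583282 counts. In sh-ctrl KIF11 was at 1976, 2088 and 2039 counts, in sh-KIF11 it was at 1448, 1478 and 1240 counts, and it fell by 0.75 on the log2 scale (SE 0.0573, edgeR adjusted p = 4.22e-15). All 8 hepatocyte markers looked at were expressed, but 7 of them were lower in sh-KIF11, and their summed level was between 29553 and 30917 CPM (counts scaled to a common library size) in sh-ctrl and between 13196 and 14243 CPM in sh-KIF11. Of 10 fibroblast and stellate cell markers, 3 were high enough to be tested, LUM, DCN, THY1 and PDPN had 3 counts or fewer in every library, and the summed level of the list was 120 to 132 CPM in sh-ctrl and 208 to 223 CPM in sh-KIF11. Of the 3 tested, ACTA2 was higher, from 91.9 ± 1.74 to 188 ± 7.12 CPM (SD, n = 3 each), while PDGFRB (log2 fold change -1.16, SE 0.245) and TAGLN (log2 fold change -0.33, SE 0.0853) were lower. Of 7 endothelial markers, CDH5, KDR, TEK and STAB2 had 3 counts or fewer in every library, and the summed level was 3.27 to 3.79 CPM against 7.73 to 8.92 CPM. PTPRC, CD3E and HBB, out of 6 blood cell markers, also had 3 counts or fewer in every library, and that list summed to 2486 to 2984 CPM against 508 to 639 CPM. The part of any of these in the changes described below was not tested. In bulk RNA, fewer cells that express a gene and less RNA of it per cell cannot be told apart.

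Because the collagen IV genes lie in head-to-head pairs, the sequence between the starts of such a pair lies upstream of both, and it is shown first, followed by the sequence before the start site of COL4A5, FN1, HSPG2 and COL9A2. They are shown because the differences described below turn on these genes: COL4A2, COL4A5, HSPG2 and COL9A2 rose in sh-KIF11, FN1 fell, and COL4A1 had almost no counts. Sequences are from RefSeq on GRCh38.p14. Capitals mark matches on either strand to 4 motifs: the GC box is spelled GGGCGG, the TATA box is spelled TATAAA, the CCAAT box is spelled by its name and the AP-1 site is spelled TGANTCA. Neighbouring matches can overlap. The sequence between COL4A1 and COL4A2 is chr13:110307158-110307283 on the plus strand, and the others are the 250 bases before the start at chrX:108439588-108439837 (plus strand), chr2:215436069-215436318 (minus strand), chr1:21937311-21937560 (minus strand) and chr1:40317287-40317536 (minus strand).
COL4A1-COL4A2: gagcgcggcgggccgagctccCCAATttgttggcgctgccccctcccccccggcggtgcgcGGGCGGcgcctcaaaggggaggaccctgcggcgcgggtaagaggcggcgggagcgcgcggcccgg
COL4A5: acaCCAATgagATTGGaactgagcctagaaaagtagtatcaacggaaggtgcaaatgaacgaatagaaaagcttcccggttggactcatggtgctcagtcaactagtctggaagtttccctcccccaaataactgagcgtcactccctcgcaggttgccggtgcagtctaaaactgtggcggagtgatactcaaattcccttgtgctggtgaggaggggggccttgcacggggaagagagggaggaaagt
FN1: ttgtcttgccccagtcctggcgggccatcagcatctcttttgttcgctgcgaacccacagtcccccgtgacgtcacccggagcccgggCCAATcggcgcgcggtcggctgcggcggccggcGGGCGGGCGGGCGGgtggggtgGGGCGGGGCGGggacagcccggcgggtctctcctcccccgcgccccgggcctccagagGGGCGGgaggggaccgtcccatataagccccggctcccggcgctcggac
HSPG2: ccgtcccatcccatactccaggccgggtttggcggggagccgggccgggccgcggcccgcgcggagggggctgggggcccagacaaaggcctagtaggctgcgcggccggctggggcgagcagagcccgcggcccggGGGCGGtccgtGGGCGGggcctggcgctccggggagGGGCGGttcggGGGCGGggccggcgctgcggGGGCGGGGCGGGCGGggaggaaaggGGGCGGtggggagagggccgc
COL9A2: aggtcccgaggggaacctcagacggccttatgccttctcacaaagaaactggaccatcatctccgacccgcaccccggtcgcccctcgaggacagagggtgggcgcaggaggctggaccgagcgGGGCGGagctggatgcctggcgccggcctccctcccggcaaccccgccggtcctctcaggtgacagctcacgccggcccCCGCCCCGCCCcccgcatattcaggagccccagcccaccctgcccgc

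The 126 bases between the starts of COL4A1 and COL4A2 had a GC content of 80.2% and held 1 CCAAT box and 1 GC box. The stretch before COL4A5 had a GC content of 51.2% and held 2 CCAAT boxes and no GC box. The FN1 sequence held 6 GC boxes and 1 CCAAT box, HSPG2 held 8 GC boxes and COL9A2 held 3. A GC box lay in 44.6%, a CCAAT box in 35.7%, a TATA box in 12.0% and an AP-1 site in 7.76% of the 27305 RefSeq promoters of 300 bases. RefSeq gave a promoter for 48 of the 65 matrix genes, of which 30 held a GC box, 14 a CCAAT box, 5 a TATA box and 1, LAMA3, an AP-1 site. Among those that rose in sh-KIF11, 7 of 12 held a GC box and 3 of 12 a TATA box, and among those that fell 6 of 6 held a GC box and 0 of 6 a TATA box. These matches describe letters in the window and nothing about binding.

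Of the 65 genes, 28 had enough counts to be tested and 37 did not. In sh-KIF11, 15 of the 28 were higher and 7 lower at an adjusted p under 0.05 (quasi-likelihood test of edgeR, Benjamini-Hochberg adjustment over all 12369 tested genes), while 6 did not pass. This must be read against a comparison in which 69.1% of all tested genes passed, 34.4% higher and 34.7% lower. The share of matrix genes that passed, 78.6%, was therefore near the background. At least 2-fold higher were 13 matrix genes, and none was at least 2-fold lower, where 8.13% and 3.52% of all tested genes were. In 21 of the 28 the groups did not overlap, as in 71.2% of all tested genes. The median log2 fold change was 0.68 over the tested matrix genes and 0.00 over all tested genes. The former was 0.12 over the 21 matrix genes with at least 10 counts in every library, 0.15 by limma on log2(FPKM + 1), 0.90 under library totals and 0.51 to 0.92 on leaving out 1 library at a time. However, 7 of the 28 (COL13A1, COL17A1, COL2A1, COL4A2, COL4A5, COL5A1 and LAMB3) passed the filter on low counts only through the sh-KIF11 libraries, so these counts and this median describe the tested genes and do not stand for the list.

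**Figure D1:**
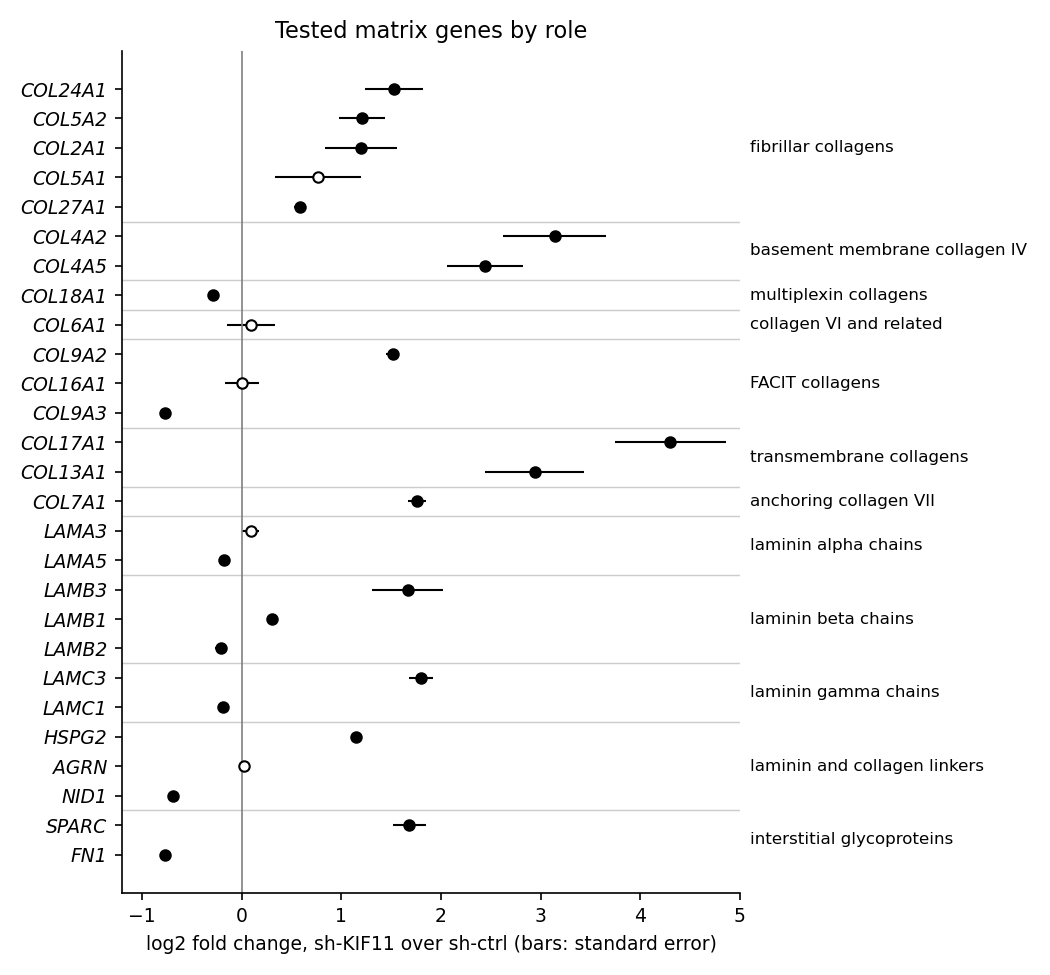
Log2 fold change (sh-KIF11 over sh-ctrl) of the tested matrix genes, grouped by role, from 3 libraries per group, with bars for the standard error; filled points passed the adjusted p of 0.05 and open points did not. The values run from -0.77 for COL9A3 to 4.30 for COL17A1, and COL4A3BP, matched by symbol only, is not drawn.

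Among the 15 tested genes whose mean was 10 CPM or more, 5 rose and 7 fell, and among all tested genes at that level 31.1% rose and 41.4% fell. All 10 genes that passed among the 13 with a lower mean rose, each at least 2-fold, where 44.9% of all tested genes below that level rose, 13.6% fell and 26.7% rose at least 2-fold. Of these 10 genes, 6 passed the filter on low counts only through sh-KIF11, so their count is a description of them alone. Scaling to library totals alone, without the trimmed-mean (TMM) factors, moved the median of all tested genes to 0.24 and the split of the matrix genes to 19 higher and 3 lower, beside 6621 higher and 2373 lower over all tested genes. The log2 fold changes below are therefore relative to the bulk of genes in these cells.

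Fibronectin was by far the most abundant of these transcripts and it fell. Per transcript length, as FPKM (fragments scaled to transcript length and library size), FN1 was at 463 ± 34.6 (SD, n = 3) in sh-ctrl and 312 ± 22.2 (SD, n = 3) in sh-KIF11, and the next gene in sh-ctrl, COL9A3, was at 58.4 ± 1.37 FPKM (SD, n = 3). FN1 was at 8704, 9159 and 7926 CPM in sh-ctrl and at 5392, 5058 and 4731 CPM in sh-KIF11. Every sh-KIF11 library was below every sh-ctrl library. It fell by 41.1% (log2 fold change -0.76, SE 0.0539, edgeR adjusted p = 3.54e-16). FN1 lies at chr2:215360865-215436068 on GRCh38.p14 and shares no exonic base with another gene of GENCODE release 29.

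Summed over the matrix genes, the fall of FN1 outweighed the genes that rose. All 65 genes together took 1.10% ± 0.0751 (SD, n = 3) of the counts in sh-ctrl and 0.934% ± 0.0518 (SD, n = 3) in sh-KIF11, and FN1 alone took 0.793% ± 0.0579 and 0.548% ± 0.0341 (SD, n = 3 each). The summed FPKM of the 65 genes went from 788 ± 49.1 to 667 ± 37.3 (SD, n = 3 each), with no overlap between the groups (two-sided exact permutation test, p = 0.1, which is as low as 3 against 3 libraries can go). Without FN1 the sum was 325 ± 15.7 FPKM in sh-ctrl and 354 ± 15.1 FPKM in sh-KIF11 (exact permutation test, two-sided p = 0.1). The share of FN1 in the summed FPKM was 58.7% ± 0.936 and 46.8% ± 0.729 (SD, n = 3 each). FPKM values are scaled to library size and not by TMM, and a sum of FPKM over genes carries that scaling. The TMM factors would lower the sh-KIF11 sums against those of sh-ctrl. The higher sum without FN1 in sh-KIF11, and its separation from sh-ctrl, therefore hold for FPKM alone.

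**Figure D2:**
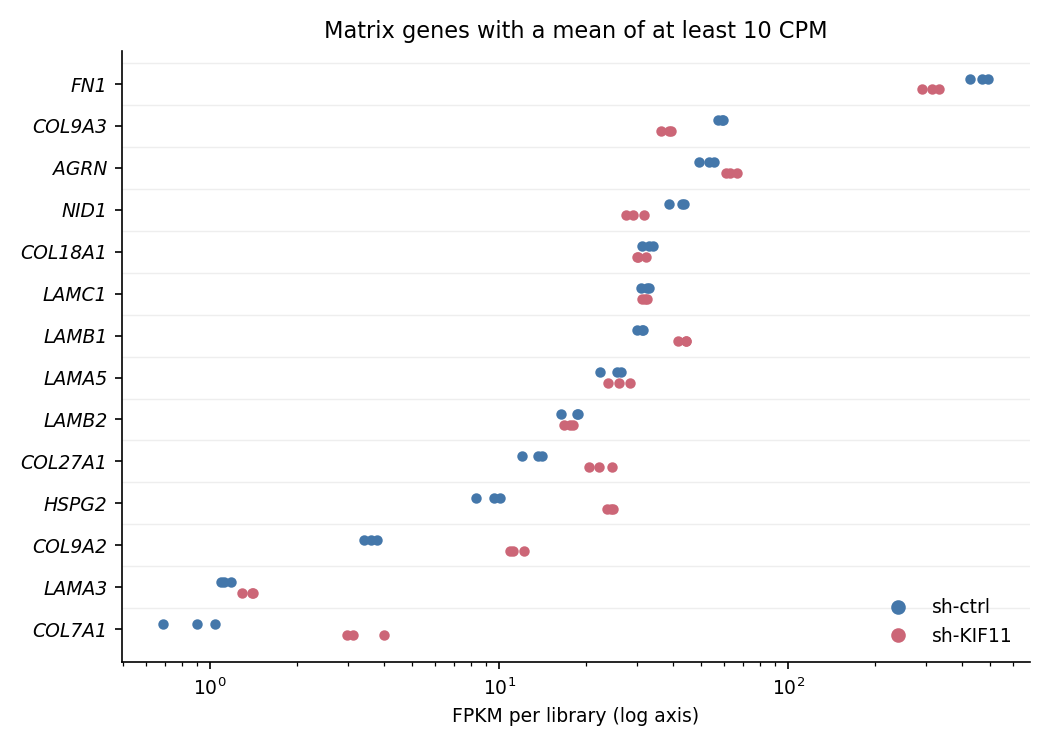
FPKM in each of the 3 libraries per group (points, log axis) for the matrix genes whose mean was 10 CPM or more, ordered by the sh-ctrl mean; COL4A3BP is not drawn. FN1 stands above all others in both groups (463 and 312 FPKM on average), and HSPG2, COL9A2 and COL7A1 show the widest separation between the groups.

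SPARC, a small collagen-binding glycoprotein, went the other way from a much lower level. It had 2.47, 2.66 and 2.37 CPM in sh-ctrl and 7.33, 8.50 and 8.32 CPM in sh-KIF11. The sh-KIF11 libraries were all above the sh-ctrl libraries, and the log2 fold change was 1.68 (SE 0.166, edgeR adjusted p = 7.48e-12). Of the exonic bases of SPARC, 381 are shared with the antisense gene CLMAT3, and the sources used here do not give the strand setting of the counting. TNC had 1 count in 1 sh-KIF11 library and none in the other 5 libraries.

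The collagen IV chains, the network formers of the basement membrane, were near the detection limit in sh-ctrl. COL4A5 had 7, 8 and 3 counts in sh-ctrl against 49, 37 and 28 counts in sh-KIF11. COL4A2 had 6, 2 and 0 counts in sh-ctrl against 19, 37 and 28 counts in sh-KIF11. Both were higher in every sh-KIF11 library than in any sh-ctrl library. The log2 fold change was 2.44 for COL4A5 (SE 0.384, edgeR adjusted p = 4.43e-07). That of COL4A2 was 3.14 (SE 0.518, edgeR adjusted p = 1.14e-06) and became 4.45 without sh-ctrl replicate 1, so the size of this change rests on a few counts in the control libraries. The ratio of the summed counts, scaled by the TMM library sizes, was 5.52 for COL4A5 (95% interval 3.34 to 9.65) and 9.16 for COL4A2 (95% interval 4.44 to 21.9), with exact intervals that cover counting error only.

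COL4A1 is the usual partner of COL4A2 in the most widespread collagen IV molecule, and the starts of both genes lie 127 bases apart on opposite strands of chromosome 13, on either side of the sequence printed above. COL4A1 nevertheless had 1, 0 and 1 counts in sh-ctrl against 1, 2 and 2 counts in sh-KIF11. COL4A6, whose start lies 380 bases from that of COL4A5 on the X chromosome, had 4, 5 and 0 counts in sh-ctrl against 9, 9 and 4 counts in sh-KIF11. Its groups overlapped at 4 counts to 5, and the ratio of its summed counts was 2.13 with a 95% interval from 0.944 to 5.26. COL4A3 and COL4A4, the third such pair, had no count in any library. In the first 2 pairs, 1 partner passed the test and the other was below the filter on low counts, and the difference between partners was not tested. COL4A2 shares 95 of its exonic bases with genes on the opposite strand, COL4A2-AS1 and COL4A2-AS2.

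**Figure D3:**
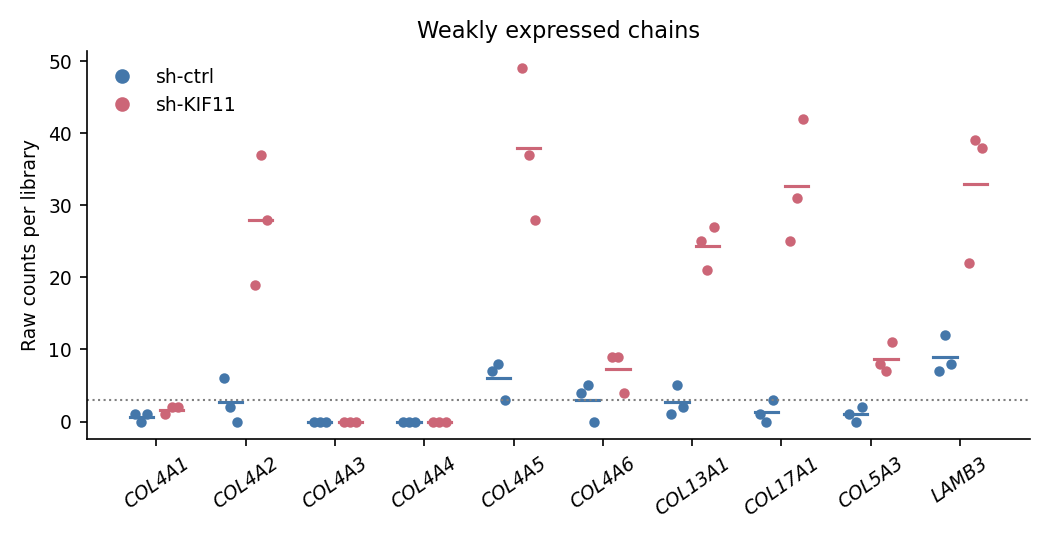
Raw counts per library (points) and group means (short lines) for the 6 collagen IV chains and other weakly expressed chains, 3 libraries per group, with a dotted line at 3 counts. COL4A2, COL4A5, COL13A1 and COL17A1 were at 8 counts or fewer in every sh-ctrl library and at 19 counts or more in every sh-KIF11 library, while COL4A1 stayed at 2 counts or fewer.

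The laminin chains expressed at a high level were LAMA5, LAMB1, LAMB2 and LAMC1, which together can form whole laminins. In sh-ctrl, LAMC1 was at 32.1 ± 1.11 FPKM, LAMB1 at 30.8 ± 0.750 FPKM, LAMA5 at 24.7 ± 2.17 FPKM and LAMB2 at 17.9 ± 1.31 FPKM (SD, n = 3 each). The sh-ctrl libraries of LAMC1 and LAMB1 overlapped, and those of LAMA5 and LAMB2 lay below them in that order without overlap. LAMA3, the next alpha chain, was at 1.13 ± 0.0461 FPKM. LAMA1, LAMA2, LAMA4 and LAMB4 had at most 5 counts in any library.

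LAMB1, a beta chain, rose. It had 322, 323 and 317 CPM in sh-ctrl and 406, 403 and 381 CPM in sh-KIF11. The groups did not overlap, and the log2 fold change was 0.31 (SE 0.0477, edgeR adjusted p = 3.73e-07). LAMB2, the other abundant beta chain, had 154, 157 and 135 CPM in sh-ctrl and 134, 130 and 123 CPM in sh-KIF11. The highest sh-KIF11 library was just below the lowest sh-ctrl library, and the log2 fold change was -0.21 (SE 0.0548, edgeR adjusted p = 0.000977), which became 0.023 under library totals and lost its call by limma on FPKM. Within a library the ratio of LAMB1 to LAMB2 does not depend on the scaling, and it went from 1.73 ± 0.0893 to 2.49 ± 0.0221 in FPKM (SD, n = 3 each), with no overlap (exact permutation test, two-sided p = 0.1).

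LAMC1, the common gamma chain, had 327, 324 and 313 CPM in sh-ctrl and 276, 290 and 283 CPM in sh-KIF11. Its log2 fold change of -0.18 (SE 0.0478, edgeR adjusted p = 0.000917) turned to 0.049 under library totals, and its call was lost with upper-quartile factors and by limma on FPKM. LAMA5 had 459, 441 and 382 CPM against 412, 377 and 350 CPM, and here the groups overlapped. Its log2 fold change of -0.17 (SE 0.0568, edgeR adjusted p = 0.00689) turned to 0.058 under library totals and to 0.073 by limma on log2(FPKM + 1), and DESeq2 did not call it (adjusted p = 0.145), nor did the fit without sh-ctrl replicate 1 or 2 or without sh-KIF11 replicate 3. The direction of LAMA5, LAMB2 and LAMC1 thus depended on the scaling. LAMA3 was at 18.7, 18.7 and 19.6 CPM against 20.8, 19.4 and 20.4 CPM and did not pass (log2 fold change 0.09, SE 0.0848, edgeR adjusted p = 0.346), but passed as higher under library totals and by limma on FPKM.

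The minor chains LAMC3 and LAMB3 rose more clearly. LAMC3, a gamma chain, had 4.49, 4.32 and 4.50 CPM in sh-ctrl and 16.3, 14.7 and 15.3 CPM in sh-KIF11. The groups were far apart, with a log2 fold change of 1.80 (SE 0.121, edgeR adjusted p = 8.82e-17). LAMB3, the beta chain of the epidermal laminin, had 7, 12 and 8 counts in sh-ctrl against 22, 39 and 38 counts in sh-KIF11 (log2 fold change 1.66, SE 0.360, edgeR adjusted p = 8.64e-05). Every sh-KIF11 library of both genes was above every sh-ctrl library.

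By class of chain, the laminin sums on the FPKM scale separated the groups for the beta chains and overlapped for the alpha and gamma chains. These sums are scaled to library size and not by TMM. The TMM factors (0.922 to 0.926 in sh-ctrl, 1.08 to 1.09 in sh-KIF11) would lower the sh-KIF11 sums against those of sh-ctrl. The separation and the overlaps given here therefore hold for FPKM alone. The alpha chains summed to 25.9 ± 2.12 FPKM in sh-ctrl and 27.4 ± 2.20 FPKM in sh-KIF11 (SD, n = 3 each; exact permutation test, two-sided p = 0.5). The beta chains summed to 48.7 ± 2.07 and 61.1 ± 2.19 FPKM without overlap (exact permutation test, two-sided p = 0.1), and the gamma chains to 32.5 ± 1.11 and 33.4 ± 0.669 FPKM (exact permutation test, two-sided p = 0.3). LAMB1 made up 63.2% ± 1.18 of the beta chain FPKM in sh-ctrl and 71.0% ± 0.130 in sh-KIF11. LAMC3 made up 1.13% ± 0.0412 and 4.53% ± 0.266 of the gamma chain FPKM, so LAMC1 remained the main gamma chain in both groups.

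Of the proteins that link laminin to collagen IV or to the cell, HSPG2 rose, NID1 fell and AGRN did not pass the test. HSPG2, the heparan sulphate proteoglycan perlecan, had 262, 248 and 211 CPM in sh-ctrl and 547, 532 and 522 CPM in sh-KIF11. The lowest sh-KIF11 library was far above the highest sh-ctrl library, and the log2 fold change was 1.15 (SE 0.0556, edgeR adjusted p = 1.43e-21). HSPG2 (chr1:21822244-21937310, GRCh38.p14) shares 2121 of its 18104 exonic bases with LDLRAD2 on the opposite strand. NID1, the nidogen that bridges the gamma 1 laminin chain and collagen IV, had 370, 373 and 336 CPM in sh-ctrl and 242, 219 and 208 CPM in sh-KIF11. Every sh-KIF11 library was lower, with a log2 fold change of -0.69 (SE 0.0536, edgeR adjusted p = 7.74e-15). NID2 had 1 count in 1 library.

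AGRN, a proteoglycan that binds laminin and dystroglycan, overlapped between the groups at 539, 512 and 470 CPM against 548, 510 and 494 CPM. Its log2 fold change was 0.03 (SE 0.0515, edgeR adjusted p = 0.632), and it was called higher under library totals (0.26) and by limma on log2(FPKM + 1) (0.27). The ratio of HSPG2 to NID1 within a library went from 0.224 ± 0.0103 to 0.828 ± 0.0365 in FPKM, and that of HSPG2 to AGRN from 0.177 ± 0.00666 to 0.382 ± 0.00787 (SD, n = 3 each). Neither ratio overlapped between the groups (exact permutation test, two-sided p = 0.1 each).

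**Figure D4:**
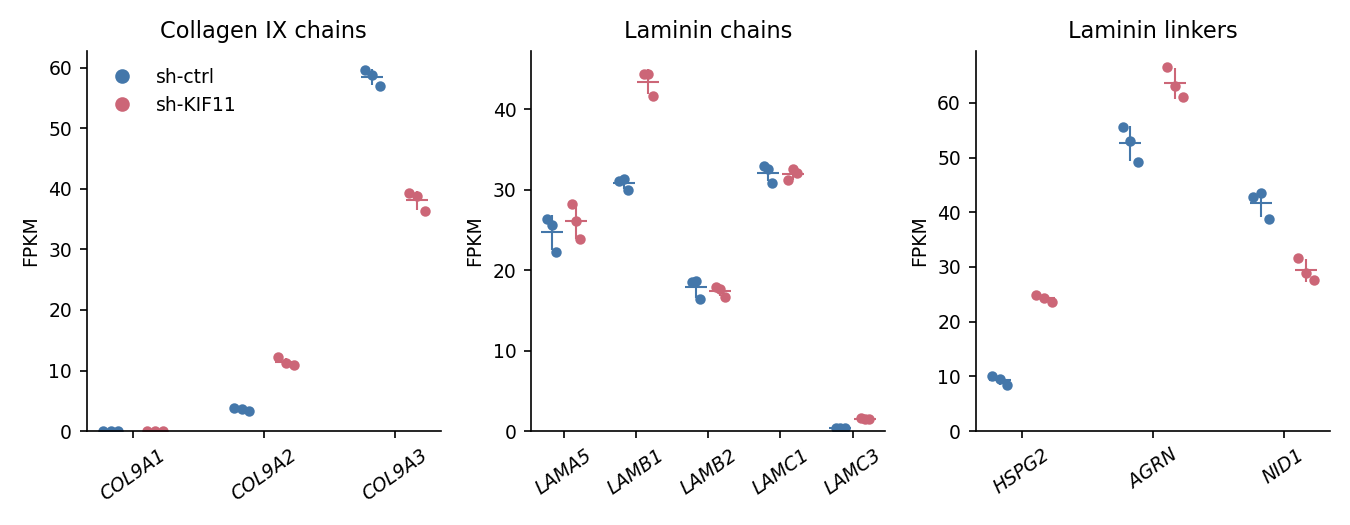
FPKM in each of the 3 libraries per group (points), with the mean (dash) and SD (bar), for chains of collagen IX, the main laminin chains and the laminin linkers. COL9A3 fell from 58.4 to 38.1 FPKM while COL9A2 rose from 3.59 to 11.4 FPKM, and HSPG2 rose from 9.33 to 24.3 FPKM while NID1 fell from 41.7 to 29.4 FPKM.

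Collagen IX, a fibril-associated collagen known from cartilage and made of COL9A1, COL9A2 and COL9A3 chains, gave the most abundant collagen transcript of these cells. COL9A3 had 297, 305 and 283 CPM in sh-ctrl and 180, 177 and 162 CPM in sh-KIF11. It fell by 41.4%, without overlap (log2 fold change -0.77, SE 0.0509, edgeR adjusted p = 4.41e-17). COL9A2 had 34.1, 31.6 and 28.6 CPM in sh-ctrl and 97.0, 88.3 and 84.3 CPM in sh-KIF11. It rose in every library (log2 fold change 1.52, SE 0.0686, edgeR adjusted p = 1.45e-22). The ratio of COL9A3 to COL9A2 in FPKM went from 16.3 ± 0.517 to 3.34 ± 0.130 (SD, n = 3 each; exact permutation test, two-sided p = 0.1). COL9A1 had no count in any library. Of the other fibril-associated collagens, COL16A1 was the only one tested, at 5.21, 3.71 and 5.33 CPM against 5.08, 4.44 and 4.72 CPM, and it overlapped completely (log2 fold change 0.00, SE 0.169, edgeR adjusted p = 0.998).

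Among the fibrillar collagens, 5 of 11 were tested and 4 rose. COL27A1, a fibrillar collagen of cartilage, was the only one above 10 FPKM, and it had 256, 263 and 221 CPM in sh-ctrl and 409, 365 and 337 CPM in sh-KIF11. The groups did not overlap (log2 fold change 0.59, SE 0.0587, edgeR adjusted p = 1.15e-11). COL5A2, which limits the width of collagen I fibrils, had 2.07, 1.72 and 1.19 CPM against 4.29, 3.91 and 3.40 CPM (log2 fold change 1.21, SE 0.230, edgeR adjusted p = 1.3e-05). COL24A1, another fibrillar chain, had 17, 18 and 11 counts against 54, 62 and 37 counts (log2 fold change 1.53, SE 0.290, edgeR adjusted p = 1.26e-05). These low levels were each higher in every sh-KIF11 library.

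COL2A1, the collagen of cartilage fibrils, had 0.729, 0.831 and 0.356 CPM in sh-ctrl and 2.09, 1.30 and 1.06 CPM in sh-KIF11 (log2 fold change 1.20, SE 0.360, edgeR adjusted p = 0.00323). Its call was lost without sh-KIF11 replicate 1 (log2 fold change 0.87, edgeR adjusted p = 0.0613) and by limma on FPKM. COL5A1 overlapped at 0.729, 0.332 and 0.296 CPM against 0.748, 0.628 and 0.963 CPM and did not pass (log2 fold change 0.77, SE 0.434, edgeR adjusted p = 0.114). Without sh-ctrl replicate 1 it did (log2 fold change 1.29, edgeR adjusted p = 0.0336). The chains of collagens I and III, which stellate cells and fibroblasts make in fibrosis, were at the detection limit: COL1A1 had 1 count in each sh-ctrl library and 4, 2 and 6 counts in sh-KIF11, COL3A1 had at most 3 counts, and COL1A2 had 7 counts in sh-ctrl replicate 2 and none elsewhere.

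The transmembrane collagens COL13A1 and COL17A1 rose from levels near the detection limit. COL17A1, a chain that anchors epithelial cells in hemidesmosomes, had 1, 0 and 3 counts in sh-ctrl against 25, 31 and 42 counts in sh-KIF11. The ratio of the summed counts was 21.4 with a 95% interval from 8.09 to 80.0, and the fitted log2 fold change of 4.30 (SE 0.555, edgeR adjusted p = 6.77e-09) became 5.56 without sh-ctrl replicate 3. COL13A1, found at cell adhesions, had 1, 5 and 2 counts in sh-ctrl against 25, 21 and 27 counts in sh-KIF11. Its ratio of summed counts was 7.96 with a 95% interval from 3.83 to 19.1, and the fitted log2 fold change of 2.94 (SE 0.498, edgeR adjusted p = 1.82e-06) became 3.71 without sh-ctrl replicate 2. Neither gene overlapped between the groups, and in sh-KIF11 neither passed 0.2 FPKM on average.

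COL7A1, which forms the anchoring fibrils beneath epithelia, was better measured. It had 19.7, 22.2 and 16.2 CPM in sh-ctrl and 76.2, 62.3 and 58.2 CPM in sh-KIF11. The lowest sh-KIF11 library was well above the highest sh-ctrl library, and the log2 fold change was 1.76 (SE 0.0906, edgeR adjusted p = 1.21e-20). COL18A1, a collagen of basement membranes whose end fragment is endostatin, had 385, 381 and 348 CPM against 319, 299 and 298 CPM. It fell by 0.29 on the log2 scale (SE 0.0501, edgeR adjusted p = 3.47e-06), a call that was lost under library totals and by limma on FPKM, and it shares 1401 exonic bases with SLC19A1 on the opposite strand. COL6A1, a chain of the beaded filaments of collagen VI, overlapped at 3.14, 2.83 and 1.54 CPM against 3.09, 1.93 and 3.04 CPM (log2 fold change 0.09, SE 0.244, edgeR adjusted p = 0.747).

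While COL9A3 fell, COL27A1 and COL9A2 rose. The collagen chains together summed to 110 ± 4.36 FPKM in sh-ctrl and 108 ± 5.87 FPKM in sh-KIF11 (SD, n = 3 each), with overlap between the groups (exact permutation test, two-sided p = 0.8). This sum is scaled to library size and not by TMM, whose factors would lower the sh-KIF11 sums against sh-ctrl. It therefore does not show an unchanged total on the scale of the fold changes. COL4A3BP, matched by symbol only, was at 25.8, 27.1 and 29.7 CPM against 32.3, 29.1 and 30.5 CPM (log2 fold change 0.15, SE 0.0781, edgeR adjusted p = 0.0773), and 7 of 16 alternatives called it higher.

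Of the 37 genes that were not tested, 6 had no count in any library (COL19A1, COL4A2-AS2, COL4A3, COL4A4, COL8A1 and COL9A1) and 31 had some. Of all 65 genes, 34 never passed 9 counts in a library, and 3 counts in a library stood for 0.145 to 0.178 CPM. COL5A3 had 1, 0 and 2 counts in sh-ctrl against 8, 7 and 11 counts in sh-KIF11, and the ratio of its summed counts was 7.56 with a 95% interval from 2.32 to 39.0. COL8A2 went the other way, with 10, 8 and 4 counts against 3, 3 and 1 counts and a summed ratio of 0.278. Neither was tested in the fit. The summed counts of COL6A3 were 5 in sh-ctrl and 18 in sh-KIF11 (ratio 3.14, 95% interval 1.12 to 10.8), and those of COL11A2 were 7 and 22 (ratio 2.74, 95% interval 1.13 to 7.60). The libraries of COL6A3 overlapped between the groups, at 3, 1 and 1 counts against 6, 9 and 3 counts. These untested genes were picked outside the rule for named genes. Their intervals cover counting error only and not the spread between libraries. Without the filter on low counts 59 matrix genes were tested and 27 were called. This was a smaller share than among all genes tested in that fit. Among those called were COL11A1, COL5A3 and LAMB4 (higher) and COL1A2 and COL8A2 (lower), which were not tested with the filter. The call of COL1A2 rested on 7 counts in sh-ctrl replicate 2, with none in any other library.

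Genes of related function were taken from 5 lists, and their counts stand beside the 69.1% of all tested genes that passed, 34.4% higher and 34.7% lower. Of 23 genes of collagen biosynthesis, most of them enzymes and chaperones, 20 were tested, 13 fell and 4 rose, with a median log2 fold change of -0.49. P4HB, a subunit of prolyl 4-hydroxylase and itself protein disulphide isomerase, had 2740, 2676 and 2531 CPM in sh-ctrl and 1233, 1163 and 1191 CPM in sh-KIF11 (log2 fold change -1.15, SE 0.0487, edgeR adjusted p = 1.56e-23). Its catalytic partner P4HA1 had a log2 fold change of -1.09 (SE 0.0623), the lysyl hydroxylase PLOD1 of -1.03 (SE 0.0521) and the prolyl isomerase PPIB of -0.99 (SE 0.0477). SERPINH1, the collagen chaperone HSP47, rose from 92.3 ± 2.59 to 138 ± 1.38 CPM (SD, n = 3 each; log2 fold change 0.58, SE 0.0513, edgeR adjusted p = 3.12e-13) and is named here after its values were seen. Under library totals the list still had 13 lower, with 6 higher.

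Genes that trim and cross-link collagen had 8 of 15 tested (1 of them, LOXL2, let through only by sh-KIF11), 2 higher and 3 lower and a median log2 fold change of -0.16. The share that passed, 62.5%, was near that of all tested genes. PCOLCE, the enhancer of procollagen C-proteinase, had 9.08, 10.4 and 9.12 CPM in sh-ctrl and 1.15, 0.628 and 0.608 CPM in sh-KIF11 (log2 fold change -3.58, SE 0.210, edgeR adjusted p = 9.48e-19). The lysyl oxidase LOX fell from 99.3 ± 10.2 to 36.4 ± 2.93 CPM (log2 fold change -1.45, SE 0.0684), whereas its relative LOXL2 rose from 0.282 ± 0.142 to 1.84 ± 0.384 CPM (log2 fold change 2.66, SE 0.396), and the transglutaminase TGM2 rose from 62.8 ± 3.97 to 129 ± 7.03 CPM (log2 fold change 1.03, SE 0.0571). LOX and LOXL2 thus moved in opposite directions, with no overlap between the groups for either. LOXL2 had only 4, 8 and 3 counts in sh-ctrl and was tested only because of its sh-KIF11 counts, so its rise describes this gene alone.

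Of 31 matrix proteases and inhibitors, 18 were tested, 10 rose and 5 fell, and the median log2 fold change was 0.96. Of the 18, 6 passed the filter on low counts only through sh-KIF11, 5 of which rose, so this count and this median do not stand for the list. MMP2, the gelatinase that cleaves collagen IV, had 0.336, 0.166 and 0.178 CPM in sh-ctrl and 7.13, 8.07 and 5.93 CPM in sh-KIF11 (log2 fold change 4.91, SE 0.295, edgeR adjusted p = 2.01e-18). Its inhibitor TIMP2 rose as well, from 21.1 ± 2.66 to 56.2 ± 3.35 CPM (log2 fold change 1.41, SE 0.0808). The urokinase gene PLAU (log2 fold change 2.34, SE 0.229) and the membrane protease MMP24 (log2 fold change 1.74, SE 0.365) were also higher. MMP2 had 6, 3 and 3 counts in sh-ctrl and MMP24 had 9, 4 and 12 counts. Both passed that filter only through sh-KIF11, so their rises describe these genes alone. Among the 5 that fell, MMP15 went from 344 to 134 CPM (log2 fold change -1.36, SE 0.0554). The inhibitor TIMP3 went from 60.9 to 24.1 CPM (log2 fold change -1.34, SE 0.0746). MMP15 and TIMP3 are named here after their values were seen. When 10 counts were required in every library, 11 genes of this list were tested and 9 passed.

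Of 23 matrix receptors, 18 were tested (2 of them let through only by sh-KIF11), 9 rose and 6 fell, with a median log2 fold change of 0.30. The integrin subunit ITGA3, which pairs with beta 1 to bind laminins, rose from 1.19 ± 0.363 to 8.76 ± 0.609 CPM (log2 fold change 2.87, SE 0.197, edgeR adjusted p = 1.6e-16). BCAM, a receptor for the laminin alpha 5 chain, fell from 181 ± 8.27 to 75.6 ± 3.90 CPM (log2 fold change -1.26, SE 0.0539, edgeR adjusted p = 2.13e-23). The collagen-binding subunit ITGA10 (log2 fold change 1.40, SE 0.224) and the syndecan SDC3 (log2 fold change 2.85, SE 0.118) were higher. ITGA3 and BCAM, both laminin receptors, thus moved in opposite directions.

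Of 37 other matrix proteins, 25 were tested, 13 rose and 8 fell, with a median log2 fold change of 0.54. Here 7 of the 25 passed the filter on low counts only through sh-KIF11, and 6 of these 7 rose. VCAN, the large proteoglycan versican, had 85.1, 83.6 and 88.7 CPM in sh-ctrl and 472, 520 and 483 CPM in sh-KIF11 (log2 fold change 2.52, SE 0.0534, edgeR adjusted p = 5.82e-34). The fibrillin FBN1 (log2 fold change 1.74, SE 0.134) and the thrombospondins THBS2 (log2 fold change 2.46, SE 0.395) and THBS3 (log2 fold change 1.99, SE 0.189) rose from lower levels. All 4 were higher in every sh-KIF11 library. THBS2, with 4, 5 and 7 counts in sh-ctrl, passed that filter only through sh-KIF11, so its rise describes this gene alone. The thrombospondin THBS1 did not pass, at 109 CPM in sh-ctrl and 107 CPM in sh-KIF11 (log2 fold change -0.02, SE 0.0538). Among the 8 that fell, TGFBI went from 312 to 168 CPM (log2 fold change -0.89) and VTN from 65.2 to 27.7 CPM (log2 fold change -1.24). THBS1, TGFBI and VTN are named here after their values were seen. Under library totals the splits became 3 higher and 2 lower for cross-linking, 11 and 3 for degradation, 12 and 5 for receptors and 15 and 5 for the other matrix proteins.

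**Figure D5:**
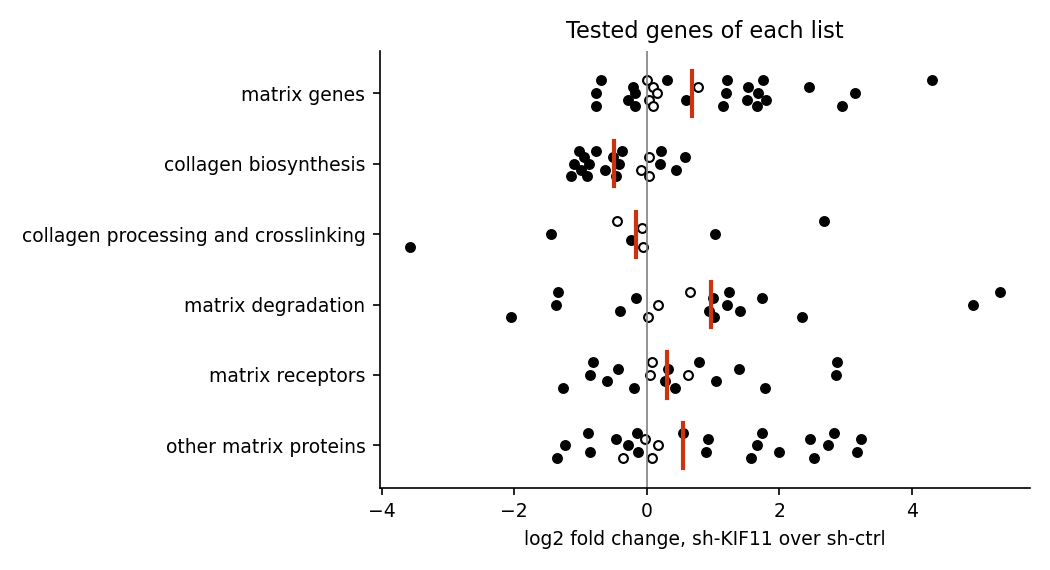
Log2 fold change (sh-KIF11 over sh-ctrl) of each tested gene in the matrix genes and in 5 lists of related genes; filled points passed the adjusted p of 0.05, open points did not, and the red line is the median of the list. The medians run from -0.49 for collagen biosynthesis to 0.96 for matrix degradation, and they cover only the tested genes, some of which passed the filter on low counts through sh-KIF11 alone.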

How the data were processed

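The authors deposited 2 tables of HepG2 libraries prepared with a stranded mRNA kit: raw counts per gene, not normalised, and FPKM values, already scaled by the authors to transcript length and library size. Their processing notes name bcl2fastq 1.8.4, Trimmomatic, HISAT2 2.1.0, Cufflinks 2.2.1, HTSeq 0.9.1, DESeq and GRCh38/hg38, without the role of each, and the counting strand is not given in the sources used here. Libraries were grouped by their labels. In the tables the knockdown columns are named only as shRNA and were taken as sh-KIF11, since the labels give no other shRNA besides the control.

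The main test was run on the counts in edgeR 4.0.16 under R 4.3.3 (filterByExpr, which kept 12369 of 20030 genes; TMM; quasi-likelihood test with the group as its only term; prior count 0.125). P-values were two-sided and adjusted by the Benjamini-Hochberg method over all tested genes, with a threshold of 0.05. CPM were scaled with TMM factors (0.922 to 0.926 in sh-ctrl, 1.08 to 1.09 in sh-KIF11). Depth was 18167773 to 19583282 counts, and the biological coefficient of variation was 4.87%. No 2 libraries of a group agreed within counting noise (chi-square over its degrees of freedom, 2.67 to 8.11). Levels were compared between genes in FPKM only. Single values were compared by exact permutation tests. Intervals of count ratios were exact at 95%. Coordinates and promoters came from RefSeq (GRCh38.p14), matched by gene identifier, and exonic overlaps from GENCODE.

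Genes named were: tested matrix genes with an adjusted p under 0.05, a log2 fold change of at least 1 in size and no overlap; the highest of each role; all collagen IV, laminin and nidogen chains; genes at 3 counts or fewer in one group and at least 10 in the other; and up to 4 genes a list, by the size of change, with a mean of at least 1 CPM. All other tested matrix genes are also given. The values of 1 gene are not reported here. The members and lists were chosen with earlier results of these data known. Alternatives were RLE and upper-quartile factors, library totals, other filters, DESeq2 1.42.0, limma 3.58.1 on log2(FPKM + 1) and log2(FPKM + 0.1), a replicate block, a threshold of 0.01 and leaving out each library. The test was checked on simulated data, in which edgeR called 197 of 200 genes given a log2 change of 1, and 8 others, among 12324 tested. The changed genes had a mean of at least 10 counts, with rises and falls drawn alike and the same dispersion for every gene. The simulation therefore does not check genes with fewer counts or calls that depend on the scaling.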

Additional observations from a re-analysis of the deposited data

How the results depend on the processing

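Of 436 alternative values over the 28 tested matrix genes, 43 changed side of the threshold or direction, in 9 genes. Library totals alone moved the median of all tested genes to 0.24, limma on log2(FPKM + 1) to 0.12 and limma on log2(FPKM + 0.1) to 0.17, from 0.00. Under library totals, LAMA5 (0.058), LAMB2 (0.023) and LAMC1 (0.049) reversed their direction, and LAMA5 also did so by limma on log2(FPKM + 1), with and without a minimum mean of 0.1 FPKM (0.073 each), and on log2(FPKM + 0.1) (0.075). Under library totals and each of these 3 limma fits, 3 matrix genes were called lower instead of 7. With at least 10 counts in every library, 9 matrix degradation genes were called instead of 15, since 11 in place of 18 were tested. The number of matrix genes called was 16 to 27 over all alternatives and 21 to 23 on leaving out 1 library at a time, with 14 to 16 higher and 6 to 7 lower. Over all genes the calls numbered 7975 to 8749 on leaving out a library. With the replicate number as a block, 22 matrix genes were called, 15 higher and 7 lower, as without it. Libraries with the same number did not deviate together (correlations 0.0338, -0.0257 and 0.00200), and not every library correlated best with its own number. The values thus showed no shared effect of the number, but they cannot tell whether the libraries were handled in pairs, which the labels do not say. The cause of the other changes was not tested. Depth limits the genes below about 10 counts a library, whose fold changes rest on few control counts.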

Other observations

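Genes of the lists with low means, picked after their values were seen, also differed between the groups. MMP1, the interstitial collagenase, had 1, 0 and 1 counts in sh-ctrl against 33, 43 and 32 counts in sh-KIF11. BGN, the small proteoglycan biglycan, had 1, 3 and 1 counts against 15, 22 and 18 counts. FBN2, a fibrillin, had 4, 1 and 7 counts against 22, 40 and 38 counts, FBLN2, a fibulin, 3, 2 and 0 counts against 15, 26 and 16 counts, and NTN1, a laminin-related guidance protein, 3, 5 and 1 counts against 22, 32 and 17 counts. All 5 were higher in every sh-KIF11 library, from levels near the detection limit. PLG, plasminogen, went the other way, with 23, 26 and 17 counts in sh-ctrl against 3, 11 and 4 counts in sh-KIF11 (log2 fold change -2.05, SE 0.429, edgeR adjusted p = 5.71e-05). LYVE1, one of the endothelial markers, had 3, 2 and 3 counts in sh-ctrl against 55, 74 and 78 counts in sh-KIF11. Of the other endothelial markers, VWF was also higher, with 34, 21 and 28 counts against 75, 63 and 54 counts (log2 fold change 1.01, SE 0.243, edgeR adjusted p = 0.000342). PECAM1 did not pass, with 26, 35 and 32 counts against 23, 34 and 44 counts. CDH5, KDR, TEK and STAB2 had 3 counts or fewer in every library.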
